A study of Mus musculus with 12 samples.

Results

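The genes described here are 10 transcription factors of the cerebellar granule neuron lineage: Atoh1, Neurod1, Neurod2, Nhlh1, Nhlh2, Insm1, Barhl1, Pax6, Meis1 and Meis2. They were taken by symbol from the deposited table of read counts, in which each symbol named 1 gene, and are 10 of its 46517 genes. The study asked how astrocytes derived from a mouse medulloblastoma, a tumor of the cerebellum, compare with normal astrocytes and with the tumor cells, called tumor granule neuron progenitors (GNPs). RNA was sequenced in 3 groups of 4 libraries each (normal astrocytes, tumor-derived astrocytes, tumor GNPs), every library labelled as laser capture microdissection of cells from frozen sections, with amplification of the 3′ ends of transcripts. The strain was given as C57BL/6 for the 8 astrocyte libraries, and as C57BL/7, C57BL/8, C57BL/9 and C57BL/10 for the GNP libraries. A sample sheet deposited with the counts called the normal astrocytes adult and from the cerebellum. The names of all 4 GNP libraries end in "cul", and the sheet described 1 of them as cultured and another only as tumor GNPs. Since the labels give laser capture, the sources used here do not settle whether the GNP libraries came from cultured cells. The sources used here do not give the allele or agent that made the tumors, the ages, or how cells were recognised before capture. Any difference in age or culture runs along with the groups and cannot be told apart from cell type.

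Granule neurons arise from progenitors of the rhombic lip that cover the surface of the developing cerebellum, divide there in response to Sonic hedgehog, and then leave the cell cycle and migrate inward. Atoh1 marks and maintains the dividing progenitors, Insm1, Nhlh1 and Nhlh2 are known from progenitors passing into young neurons, and Neurod1 and Neurod2 drive and maintain the neuronal program. Barhl1, Pax6, Meis1 and Meis2 are homeodomain factors that are present over longer stretches of the lineage. Hedgehog-driven medulloblastoma grows from these progenitors, whereas astrocytes belong to a separate, glial lineage.

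Total counts ran from 8838441 to 11287457 in normal astrocytes, from 8679971 to 12626596 in tumor-derived astrocytes and from 8154401 to 8673023 in GNPs. GNP libraries 1, 2 and 4 were unusually alike. Their chi-square per degree of freedom over genes with 10 to 49 counts in a pair was 1.21 to 1.59, against 4.17 to 14.25 in the 15 other pairs. The trio is therefore counted as 1 sample in each GNP mean ± SD (n = 2, the mean of libraries 1, 2 and 4, and library 3). In comparisons with GNPs a gene is called higher or lower only if its adjusted p was under 0.05, in the same direction, both with all 12 libraries and with the trio summed. The 10 astrocyte markers examined were all detected in each group, which for a marker means only that the group held at least 1 read of it. Their summed level was 5850 to 12900 CPM (counts scaled to a common library size) in normal astrocytes. It was 945 to 2060 CPM in tumor-derived astrocytes and 465 to 695 CPM in GNPs. Aldoc took the largest part of that sum in normal astrocytes, at 6960 CPM against 479 CPM in tumor-derived astrocytes. In GNPs the largest parts were S100b (305 CPM) and Slc1a2 (187 CPM), while Aqp4 stood at 0.017, Fgfr3 at 0.437 and Aldh1l1 at 0.843 CPM. Between the astrocyte groups 6 of the 10 were lower, 1 was higher, Gfap (from 11.2 to 92.4 CPM, adjusted p = 0.0284), and Aldh1l1 stood at 241 and 274 CPM. Levels below are CPM after TMM scaling, and compare libraries for 1 gene, not genes with each other.

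Of the 10 factors, 9 had enough counts to be tested, and Meis2 did not. In tumor-derived against normal astrocytes, 7 of the 9 were higher (Atoh1, Nhlh1, Nhlh2, Insm1, Barhl1, Pax6 and Meis1), where 20.7% of all 14393 tested genes were. Neurod2 alone of the 9 was lower, where 19.3% of all tested genes were, and Neurod1 was not called. Between tumor-derived astrocytes and GNPs, edgeR called 0 of the 9 higher and 0 lower, where 7.84% and 4.36% of all tested genes were called. In GNPs against normal astrocytes, 6 were higher (the same genes without Pax6) and 0 lower, where 13.9% and 13.4% of all tested genes were called. Atoh1, Nhlh1, Insm1 and Nhlh2 passed the filter on low counts only through the tumor groups. The counts of calls, and the p-values of these genes against normal astrocytes given below, are therefore a description of the factors and not support for a pattern. The median log2 difference of the 9 was 2.04, -0.44 and 3.31 in these comparisons, in the order given, beside 0.03, 0.08 and -0.03 over all tested genes. The comparisons share control samples: each group enters 2 of them.

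**Figure D1:**
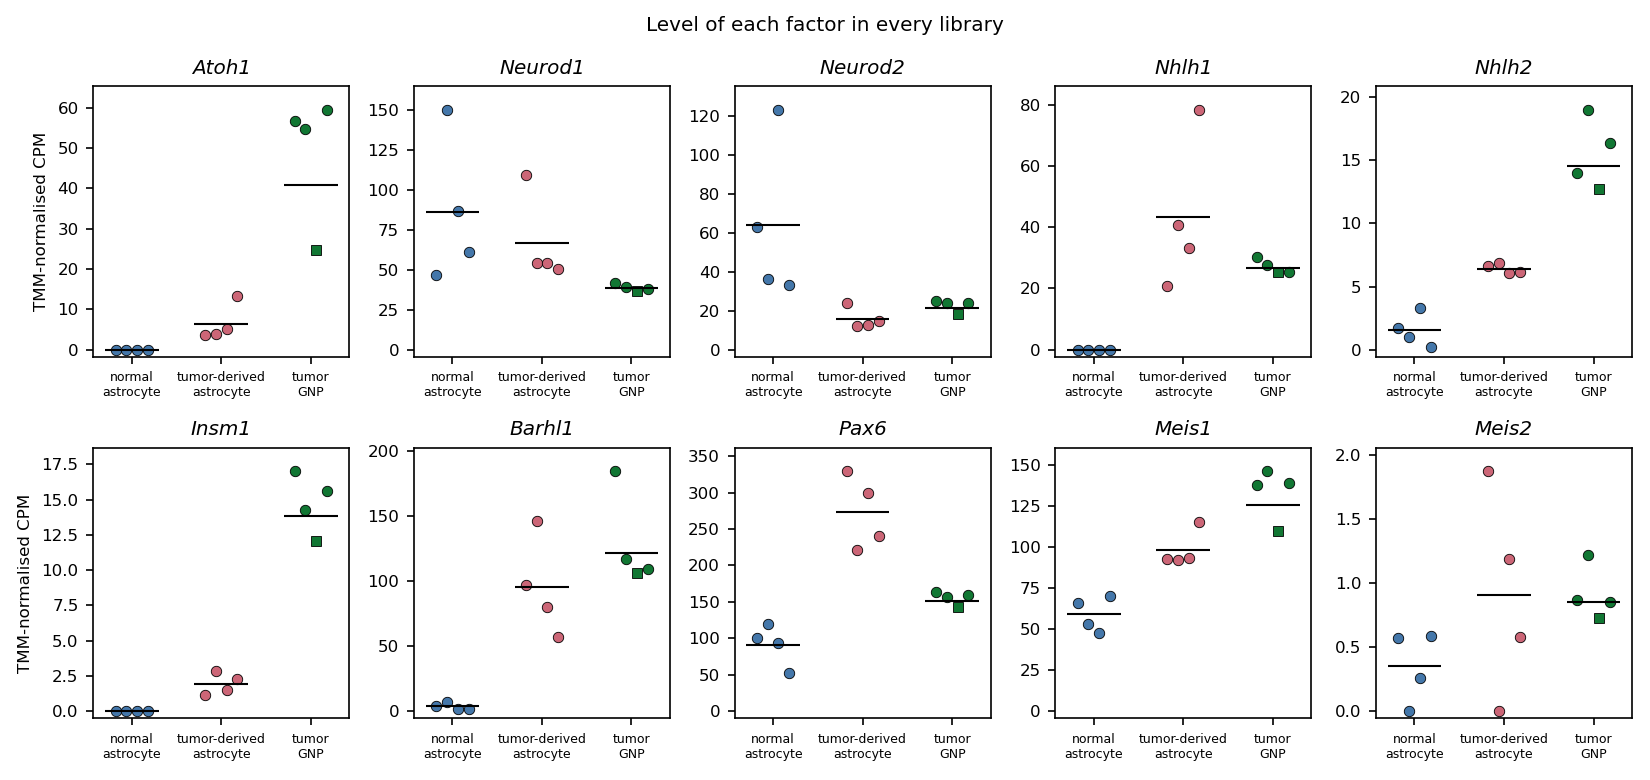
Level of each of the 10 factors in every library, in TMM-normalised CPM on linear axes of their own, for the 3 groups of 4 libraries. Each point is 1 library, the square is GNP library 3, and the line is the group mean, in which GNP libraries 1, 2 and 4 count as 1; Atoh1, Nhlh1 and Insm1 were at 0 in the 4 normal libraries.

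The plot of levels by library shows more than 1 order among the groups. Atoh1, Nhlh2 and Insm1 stood lowest in normal astrocytes, between in tumor-derived astrocytes and highest in GNPs, with no overlap between any of the groups, an order shown by 2.82% of all tested genes. Pax6 stood higher in all 4 tumor-derived libraries than in any other, as did 8.32% of all tested genes. Neurod2 stood higher in the 4 normal libraries than in any other, as did 10.5% of all tested genes, with the tumor-derived and GNP libraries overlapping.

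The promoters of Atoh1, Nhlh1, Nhlh2 and Barhl1 are shown because these basic helix-loop-helix and homeodomain genes were higher in both tumor groups than in normal astrocytes, and because basic helix-loop-helix factors bind E-boxes, CANNTG. Sequences are from RefSeq, build GRCm38.p6, which shares its coordinates with mm10, and run 5′ to 3′ on the gene's strand, with E-boxes in capitals. Each covers the 250 bases before the start of transcription in RefSeq, at chr6:64728875-64729124 on the plus strand for Atoh1, chr1:172057597-172057846 on the minus strand for Nhlh1 and chr2:28916669-28916918 on the minus strand for Barhl1. That of Nhlh2 was shortened to 181 bases, chr3:102009895-102010075 on the plus strand, where the deposited gene model begins earlier.
Atoh1: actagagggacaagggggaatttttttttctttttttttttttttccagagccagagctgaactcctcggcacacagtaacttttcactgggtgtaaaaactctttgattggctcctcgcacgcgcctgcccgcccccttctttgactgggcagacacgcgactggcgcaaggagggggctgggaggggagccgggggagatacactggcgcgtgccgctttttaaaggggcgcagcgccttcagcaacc
Nhlh1: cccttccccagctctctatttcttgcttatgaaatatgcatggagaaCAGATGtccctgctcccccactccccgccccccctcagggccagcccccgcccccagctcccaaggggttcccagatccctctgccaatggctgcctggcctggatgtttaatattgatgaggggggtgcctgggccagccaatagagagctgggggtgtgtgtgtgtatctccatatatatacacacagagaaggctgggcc
Nhlh2: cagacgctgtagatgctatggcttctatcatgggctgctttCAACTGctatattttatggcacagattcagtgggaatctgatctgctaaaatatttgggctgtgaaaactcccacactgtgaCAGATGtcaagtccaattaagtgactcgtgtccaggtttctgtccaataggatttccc
Barhl1: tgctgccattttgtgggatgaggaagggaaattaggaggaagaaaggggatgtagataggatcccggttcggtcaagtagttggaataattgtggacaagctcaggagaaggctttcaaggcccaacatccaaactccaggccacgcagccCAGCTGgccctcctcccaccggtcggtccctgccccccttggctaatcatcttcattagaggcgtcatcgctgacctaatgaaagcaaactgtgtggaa

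RefSeq windows were matched for 9 of the 10 factors (all but Insm1), and motifs were searched on both strands of the whole window, from 250 bases before to 50 after the start. The Atoh1 window held no CANNTG, nor did those of Pax6 and Meis2, whereas 72.3% of all 32851 windows of that length held at least 1. The Barhl1 window held a single E-box, CAGCTG, whose first base lay at -99 from the start. That form, the palindrome also found in Atoh1-bound sites, was in 16.3% of all windows. The Nhlh1 window held CAGATG at -203 and CAGGTG at 5. The Nhlh2 window held 4 E-boxes, namely CAACTG at -209, CAGATG at -127, CAATTG at 10 and CAGCTG at 45. CAGATG is CATCTG read on the other strand, a form bound by Neurod factors, and was in 17.2% of all windows. It was also in the Neurod2 window, at -118, beside CATGTG at -51 and CATATG at -17. In both Nhlh2 and Neurod2 the CAGATG overlaps a TGACAG, the core bound by Meis proteins, which was in 19.2% of all windows. The window of Neurod1 held CATATG at -242, and that of Meis1 CATGTG at -181. The Gli core CCACCC was found in the Meis1 window alone among the 9, and in 31.5% of all windows. These are matches of letters in 1 short window per gene and say nothing of binding.

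Atoh1, the basic helix-loop-helix factor that defines granule progenitors and is needed for hedgehog-driven tumors in mice, is a gene of 1 exon on chromosome 6 (64729125 to 64731245, mm10). It had 0 counts in each of the 4 normal libraries, which allows a level of up to 3 counts, on average 0.294 CPM. Its level was 3.74, 3.93, 4.99 and 13.2 CPM in tumor-derived libraries 1 to 4, and 56.6, 54.8, 24.7 and 59.4 CPM in GNP libraries 1 to 4. All 3 groups were apart, and within the tumor groups tumor-derived library 4 was the highest of its group and GNP library 3 the lowest. The mean was 6.48 ± 4.54 CPM (SD, n = 4) in tumor-derived astrocytes, at least 22.0-fold higher than in normal astrocytes (adjusted p = 6.05e-05), and at least 14.4-fold without library 4. In GNPs it was 40.8 ± 22.8 CPM (SD, n = 2), at least 139-fold higher than in normal astrocytes (adjusted p = 5.44e-06). The tumor-derived level was 15.9% of the GNP level, a log2 difference of -2.91 ± 0.56 (SE), and without tumor-derived library 4 it was 10.3%, at -3.53. The difference over all libraries had an adjusted p of 0.00322 with all 12 libraries and of 0.0509 with the trio summed, and so was not called.

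Insm1, a zinc finger factor that promotes the move from dividing progenitor to neuron, is also a gene of 1 exon (chromosome 2, 146221921 to 146225020). It had 0 counts in the 4 normal libraries. Its level was 1.12, 2.83, 1.52 and 2.3 CPM in the tumor-derived libraries, which rest on 9 to 24 counts each, and 17.0, 14.3, 12.1 and 15.6 CPM in the GNP libraries. The tumor-derived libraries lay between the other groups and touched neither. The tumor-derived mean was 1.94 ± 0.767 CPM (SD, n = 4), at least 6.61-fold higher than in normal astrocytes (adjusted p = 0.000169). The GNP mean was 13.9 ± 2.45 CPM (SD, n = 2), at least 47.2-fold higher (adjusted p = 1.25e-05). Tumor-derived astrocytes stood at 14.0% of GNPs, a log2 difference of -2.91 ± 0.60 (SE) with an adjusted p of 0.00455, or 0.069 with the trio summed. Atoh1 and Insm1 thus had the lowest tumor-derived levels relative to GNPs among the 10 factors, at 15.9% (10.3% without tumor-derived library 4) and 14.0%, and the next lowest was Nhlh2 at 44.1%.

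Nhlh1 and Nhlh2 are paralogous basic helix-loop-helix factors of differentiating neurons, on chromosome 1 (172052292 to 172057573) and chromosome 3 (102010076 to 102015492). Nhlh1 had 0 counts in the 4 normal libraries. Its level was 20.8, 40.8, 33.1 and 78.3 CPM in tumor-derived libraries 1 to 4, and 30.1, 27.6, 25.4 and 25.2 CPM in GNP libraries 1 to 4. The GNP libraries fell within the range of the tumor-derived ones. The tumor-derived mean of 43.2 ± 24.8 CPM (SD, n = 4) was at least 147-fold higher than in normal astrocytes (adjusted p = 3.87e-06), and the GNP mean of 26.5 ± 1.57 CPM (SD, n = 2) at least 90.3-fold higher (adjusted p = 2.62e-06). The log2 difference between tumor-derived astrocytes and GNPs was 0.68 ± 0.43 (SE, adjusted p = 0.257), a tumor-derived level of 163% of that in GNPs.

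Nhlh2 was not at 0 in normal astrocytes, where the 4 libraries held 1.7, 1.02, 3.27 and 0.195 CPM, the last from 2 counts. It was at 6.61, 6.88, 6.07 and 6.14 CPM in the tumor-derived libraries and at 14.0, 19.0, 12.7 and 16.4 CPM in the GNP libraries. The 3 groups did not overlap, and the tumor-derived libraries were the most alike. From normal to tumor-derived astrocytes it was higher by 2.04 ± 0.65 on the log2 scale (SE, adjusted p = 0.0227). That call was lost with the trio summed (adjusted p = 0.0571) and with the 2 astrocyte groups fitted alone (0.076), and the difference was 2.73 without normal library 3. From normal astrocytes to GNPs it was higher by 3.31 ± 0.67 (SE, adjusted p = 0.00148), by 4.0 without normal library 3, and by 3.35 with those 2 groups fitted alone, where the call was lost (adjusted p = 0.0777). Between tumor-derived astrocytes and GNPs the log2 difference of -1.27 ± 0.62 (SE) did not pass the test (adjusted p = 0.133). Of the pair, then, Nhlh1 stood at 163% of the GNP level in tumor-derived astrocytes and Nhlh2 at 44.1%, each short of the threshold.

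Neurod1 and Neurod2, basic helix-loop-helix factors of granule neuron differentiation and survival, did not share this order. Neurod1 lies on chromosome 2 (79452521 to 79456751), inside the gene Cerkl on the same strand. Cerkl itself held 38, 23 and 50 counts over the normal, tumor-derived and GNP libraries, against 3440, 2342 and 1485 for Neurod1. The Neurod1 level was 46.4, 150, 86.5 and 61.0 CPM in normal libraries 1 to 4, and 109, 54.2, 54.2 and 50.7 CPM in tumor-derived libraries 1 to 4. It was 41.9, 39.2, 36.8 and 38.1 CPM in the GNP libraries, all below the other 2 groups, which overlapped. The log2 difference between tumor-derived and normal astrocytes was -0.36 ± 0.37 (SE, adjusted p = 0.465). It was -0.66 without tumor-derived library 1 and 0.07 without normal library 2. Tumor-derived astrocytes held 175% of the GNP level, a log2 difference of 0.78 ± 0.37 (SE, adjusted p = 0.121). GNPs against normal astrocytes gave -1.14 ± 0.37 (SE, adjusted p = 0.024, and 0.158 with the trio summed).

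Neurod2, on chromosome 11 (98325415 to 98329648), was at 62.8, 36.5, 123 and 33.2 CPM in the normal libraries. It was at 23.7, 12.2, 12.5 and 14.7 CPM in the tumor-derived libraries and at 25.2, 24.0, 18.3 and 23.9 CPM in the GNP libraries. Every normal library stood above every tumor library, and the tumor groups overlapped. It was lower in tumor-derived than in normal astrocytes, at a difference of -2.02 ± 0.44 on the log2 scale (SE, adjusted p = 0.00264). The difference between GNPs and normal astrocytes was -1.49 ± 0.43 (SE), with an adjusted p of 0.0125 that became 0.0971 with the trio summed. Tumor-derived astrocytes and GNPs differed by -0.54 ± 0.42 (SE, adjusted p = 0.352).

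Markers of mature granule neurons differed between the groups as well. The summed level of the 12 markers was 3050 to 10000 CPM in normal astrocytes, 1180 to 2140 CPM in tumor-derived astrocytes and 262 to 424 CPM in GNPs. In normal and tumor-derived astrocytes 11 of the 12 were detected, with Kcnk9 at 0, and in GNPs 10 were, with Gabra6 and Gabrd, which define mature granule neurons, at 0. Like Neurod2, 10 of the 11 tested markers were lower in tumor-derived than in normal astrocytes, where 19.3% of all tested genes were. Rbfox3, at a log2 difference of -0.22 ± 0.48 (SE, adjusted p = 0.743), was not called. Between tumor-derived astrocytes and GNPs 5 of the 11 markers were lower in GNPs, where 7.84% of all tested genes were. The rest of the markers were, like Neurod2, not called. The part of mature granule neurons in the Neurod1 and Neurod2 levels was not tested. In captured cells, fewer cells of a type and less RNA per cell cannot be told apart.

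Barhl1, a homeodomain factor of the rhombic lip that Atoh1 activates and that supports granule neuron migration and survival, lies on chromosome 2 (28907679 to 28916668). Its level was 3.78, 7.38, 1.98 and 1.85 CPM in the normal libraries and 97.1, 146, 80.0 and 57.0 CPM in the tumor-derived ones. It was 184, 117, 106 and 109 CPM in the GNP libraries, where library 1 was highest. The normal libraries were all far below the rest, and the tumor groups overlapped. It was higher in tumor-derived than in normal astrocytes by 4.67 ± 0.50 on the log2 scale (SE, adjusted p = 1.6e-05), a 25.4-fold ratio of means. In GNPs it was higher than in normal astrocytes by 5.11 ± 0.51 (SE, adjusted p = 4.46e-06). Between tumor-derived astrocytes and GNPs the log2 difference was -0.44 ± 0.42 (SE, adjusted p = 0.448).

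Pax6, a paired-box factor present from progenitor to mature granule neuron, lies on chromosome 2 (105668900 to 105697364). It was at 100, 119, 92.9 and 52.1 CPM in the normal libraries and at 329, 221, 300 and 241 CPM in the tumor-derived libraries. The GNP libraries held 164, 157, 143 and 159 CPM and lay between, with no overlap of any groups. Pax6 was higher in tumor-derived than in normal astrocytes by 1.58 ± 0.25 on the log2 scale (SE, adjusted p = 0.000328). Against GNPs the difference was 0.81 ± 0.24 (SE), with an adjusted p of 0.0222 that became 0.17 with the trio summed. For GNPs against normal astrocytes it was 0.77 ± 0.24 (SE, adjusted p = 0.0206, and 0.0855 with the trio summed), so neither was called. The antisense gene Pax6os1, which overlaps it, had 0, 23 and 35 counts over the 3 groups, against 3727, 9715 and 5923 for Pax6.

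Meis1 and Meis2 are homeodomain factors of the TALE class that pair with Pbx proteins, and Meis1 is known to regulate Pax6 transcription and Atoh1 turnover in mouse granule precursors. Meis1, on chromosome 11 (18879817 to 19018985), was at 65.7, 53.2, 47.8 and 69.9 CPM in the normal libraries. It was at 92.4, 91.9, 93.0 and 115 CPM in the tumor-derived libraries and at 138, 146, 110 and 139 CPM in the GNP libraries. Every tumor library exceeded every normal one, and the tumor groups overlapped through tumor-derived library 4 and GNP library 3. It was higher in tumor-derived than in normal astrocytes by 0.73 ± 0.21 on the log2 scale (SE, adjusted p = 0.0148). In GNPs it was higher than in normal astrocytes by 1.17 ± 0.21 (SE, adjusted p = 0.000674), a call lost with those 2 groups fitted alone (adjusted p = 0.0675). Tumor-derived astrocytes and GNPs differed by -0.44 ± 0.21 (SE, adjusted p = 0.125). Small genes inside Meis1 on either strand held 0 to 165 counts per group, against 2436 to 5072 for Meis1.

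Meis2, on chromosome 2 (115863064 to 116065839), had 15 counts over the normal libraries, 32 over the tumor-derived and 35 over the GNP libraries. It was at 0.353 ± 0.279 CPM (SD, n = 4), 0.910 ± 0.805 CPM (SD, n = 4) and 0.853 ± 0.179 CPM (SD, n = 2) in these groups. It had 0 counts in normal library 2 and in tumor-derived library 2, so the astrocyte groups overlapped. The GNP libraries, at 0.726 to 1.22 CPM, stood above the normal ones, at 0 to 0.585 CPM, but at so few counts no difference was tested. The log2 ratio of Meis2 to Meis1 counts within a library was -7.47 ± 2.21 in tumor-derived astrocytes and -7.68 ± 1.49 in normal astrocytes (SD, n = 4 each). An exact permutation test, two-sided, gave p = 0.857 for the difference of 0.21, and p = 0.886 for that of -0.35 against GNPs. Neither sign was stable: with 1 library left out the first ran from -0.52 (without normal library 2) to 1.23 (without tumor-derived library 2), and the second from -0.98 to 0.67 (without tumor-derived library 1 and 2).

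**Figure D2:**
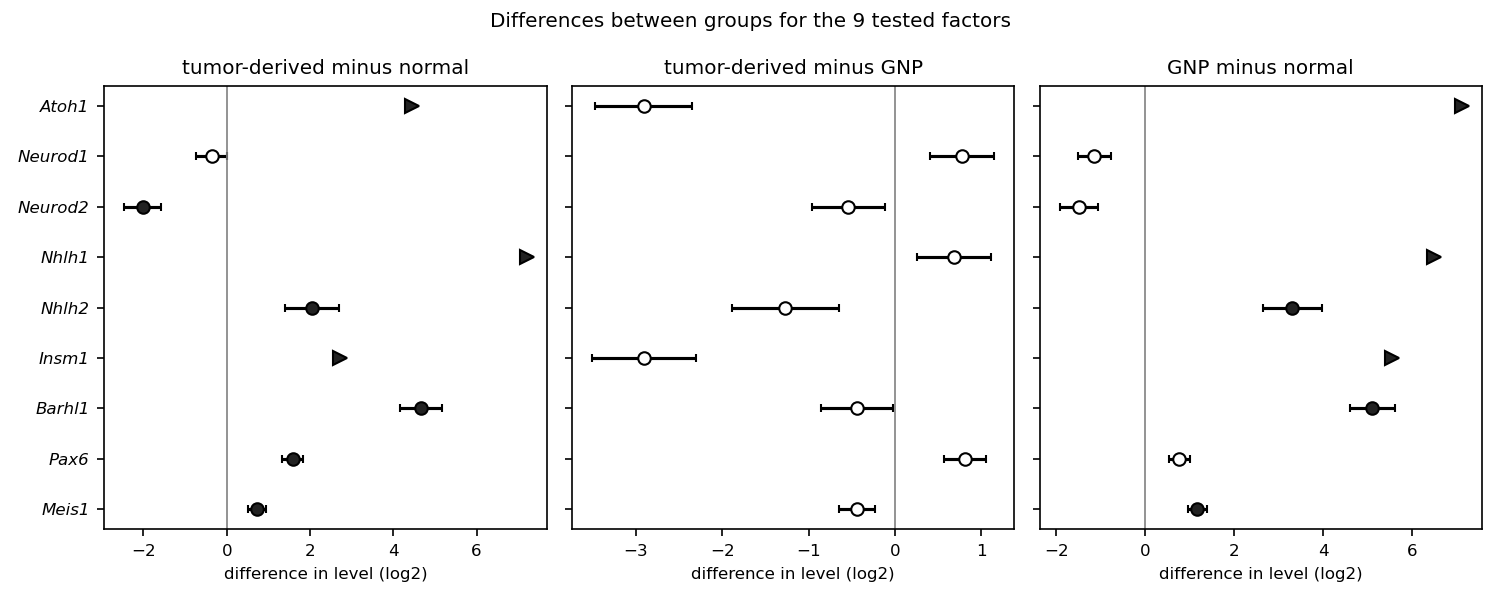
Log2 difference in level for the 9 tested factors in 3 comparisons. Circles with bars are edgeR estimates ± SE, triangles are lower bounds where the normal libraries were at 0, and filled marks were called at an adjusted p under 0.05 (in both fits for comparisons with GNPs); in the middle panel no mark is filled.

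The plot of differences sets the 3 comparisons side by side. Barhl1 had a log2 difference of 4.67 from normal to tumor-derived astrocytes and of 5.11 from normal astrocytes to GNPs, and Meis1 of 0.73 and 1.17. Pax6 had 1.58 and 0.77, and was called only in the first. In the middle comparison the libraries of 5 factors did not overlap. Neurod1 and Pax6 stood higher in every tumor-derived library, where 25.8% of all tested genes did, and Atoh1, Insm1 and Nhlh2 stood lower in every one, where 22.1% did. With all 12 libraries taken as separate, edgeR called Pax6 higher and Atoh1 and Insm1 lower, where 20.1% and 12.9% of tested genes were called, and DESeq2 called Atoh1 and Insm1 lower, in both fits, and no factor higher, where 6.75% and 15.7% of tested genes were called. At an unadjusted p under 0.05 the count was 1 higher and 2 lower in either edgeR fit, the same 3 genes. Of all tested genes 25.2% were higher and 18.6% lower at that threshold with 12 libraries, and 16.3% and 12.9% with the trio summed. In the main edgeR setting, Atoh1 and Insm1 were thus called with the GNP trio as 3 samples and not as 1. With both fits required, their calls also moved with the filter and the libraries included. Atoh1 was then called by edgeR with the CPM 10 filter (adjusted p = 0.0368). With those 2 groups fitted alone, both Atoh1 (adjusted p = 0.00929) and Insm1 (0.00672) were called. Neither was called with a tumor-derived or GNP library left out. The calls also differed between edgeR and DESeq2.

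A ratio of 2 genes within a library does not depend on how the library was scaled. The log2 ratio of Neurod1 to Atoh1 counts was 4.84, 3.76, 3.43 and 1.93 in tumor-derived libraries 1 to 4. It was -0.43, -0.48, 0.58 and -0.64 in GNP libraries 1 to 4. All tumor-derived libraries stood above all GNP libraries, by 3.74 in the mean (exact permutation test, two-sided, p = 0.0286, the smallest that 4 against 4 allows). Adjusted over the 4 ratio tests this was 0.0571. The log2 ratio of Nhlh1 to Atoh1 was 2.46, 3.35, 2.72 and 2.56 in the tumor-derived libraries and -0.91, -0.99, 0.04 and -1.24 in the GNP libraries. The groups were apart, by 3.54 in the mean (exact permutation p = 0.0286, adjusted 0.0571). Both ratios hold Atoh1, so they are not independent of each other. The log2 difference of Atoh1 itself was -2.91, beside 0.78 for Neurod1 and 0.68 for Nhlh1, none of them called. With the GNP trio as 1 value the differences in ratio were 3.46 and 3.27. The exact permutation p was 0.0667 for both ratios, which 4 against 2 cannot go below. The GNP library nearest the tumor-derived ones was in both cases library 3, the one in which Atoh1 was lowest.

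**Figure D3:**
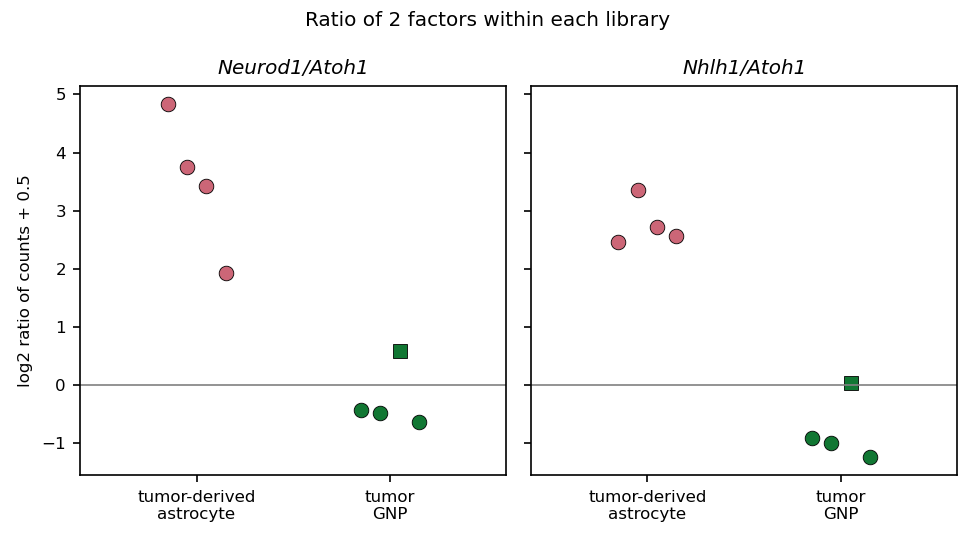
Log2 ratio of Neurod1 to Atoh1 and of Nhlh1 to Atoh1 counts, with 0.5 added to each count, in the 4 tumor-derived and 4 GNP libraries; each point is 1 library and the square is GNP library 3. Tumor-derived libraries ran from 1.93 to 4.84 and from 2.46 to 3.35, and GNP libraries from -0.64 to 0.58 and from -1.24 to 0.04; only differences between groups are comparable, since the ratio itself depends on how well each gene is captured.

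Over 10 columns (the GNP trio averaged), the genes whose log2 levels were most like Atoh1 by Pearson's r were Adamts20 at 0.989, Cenpi and Kntc1 at 0.981, Arhgap11a at 0.979 and Snord100 at 0.978. Cenpi and Kntc1 encode kinetochore proteins. For Insm1 they were Ano5 at 0.989, Tex14 at 0.988 and Cdhr1 at 0.986, and for Nhlh1 they were Tox3 at 0.994 and Chaf1b and Sapcd2 at 0.993. Barhl1 was most like Rpl29 at 0.988, Mns1 at 0.983 and 2700094K13Rik at 0.982. Nhlh2 was most like H3f3b at 0.984, 1810022K09Rik at 0.972 and Rpl27 at 0.968, and Meis1 was most like Gatad2a at 0.964, Socs2 at 0.962 and Nusap1 at 0.961. For Pax6, Gm3511 reached 0.971 and Rps19 0.957. Neurod2 was most like Ier3 at 0.981, Tbc1d30 at 0.978 and Gpbp1 at 0.970, and Neurod1 reached only 0.916 with Phf21a, 0.907 with Gm14776 and 0.902 with Vegfc. These points share 3 groups of libraries, so any gene that separates the groups the same way scores high.

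Lists of related genes were read in the same fits. Of 9 relatives of the same families, 5 were tested. Atoh8, a relative of Atoh1, was the one called between the astrocyte groups, lower in tumor-derived astrocytes at a log2 difference of -2.54 ± 0.80 (SE, adjusted p = 0.0214) at 1.74 against 10.2 CPM. With 19.3% of all tested genes lower, 1 of 5 is near that share. Insm2, the paralog of Insm1, stood at 0.199 ± 0.397 CPM in normal and 0.743 ± 0.592 CPM in tumor-derived astrocytes (SD, n = 4 each). In GNPs it stood at 15.9 ± 0.171 CPM (SD, n = 2), higher than in normal astrocytes by 6.33 ± 1.29 on the log2 scale (SE, adjusted p = 0.00153). It was named after its values were seen. Insm2 passed the filter on low counts only through GNPs, and Atoh8 only through the normal libraries, so their p-values are a description only.

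Of 14 partner proteins (E proteins, Pbx and Pknox factors, Insm1 cofactors and the ubiquitin ligase Huwe1), each of which was tested, tumor-derived astrocytes had 3 higher and 2 lower than normal astrocytes. With 20.7% and 19.3% of all tested genes called, these counts are near the background and no result about the partners as a group. Huwe1, which marks Atoh1 for degradation, was higher by 0.90 ± 0.33 (SE, adjusted p = 0.0458), and Pknox1 by 1.49 ± 0.56 (SE, adjusted p = 0.0486). Tcf4, an E protein that dimerises with Atoh1, was lower, at a log2 difference of -0.54 ± 0.17 (SE, adjusted p = 0.0253), as was the deacetylase Hdac2, at -1.34 ± 0.49 (SE, adjusted p = 0.0439). Tcf4 and Hdac2 were also the 2 partners lower in tumor-derived astrocytes than in GNPs, where 4.36% of all tested genes were. Their log2 differences were -1.29 ± 0.18 (SE, adjusted p = 0.000203) and -2.73 ± 0.51 (SE, adjusted p = 0.00164). With the trio summed, all of the partner calls between astrocyte groups were lost, with adjusted p-values of 0.0766 for Huwe1, 0.0709 for Pknox1, 0.0828 for Tcf4 and 0.0945 for Hdac2, and 0.105 for Hdac1, the fifth.

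Of 12 other granule progenitor genes, 11 could be tested. Of these, edgeR called 5 higher and 0 lower in tumor-derived than in normal astrocytes, where 20.7% and 19.3% of all tested genes were. Cyclin D2 (Ccnd2) rose by 8.09 ± 0.75 on the log2 scale (SE, adjusted p = 5.35e-06), from 4.17 to 1130 CPM, and Zic4 by 2.40 ± 0.27 (SE, adjusted p = 2.07e-05), from 19.6 to 103 CPM. Of 10 young granule neuron genes, 5 were higher and 2 lower, the latter near the share of all tested genes. Igfbpl1 was at 0 in the 4 normal libraries and at 518 CPM in tumor-derived astrocytes, and Dcx, a microtubule protein of migrating neurons, rose by 6.95 ± 0.53 (SE, adjusted p = 1.32e-06). Stmn2 was lower, at a log2 difference of -1.13 ± 0.23 (SE, adjusted p = 0.00161), and so was Plxna2, at -2.08 ± 0.48 (SE, adjusted p = 0.00419). Of the 12 mature granule neuron genes, 11 were tested, and 10 were lower and 0 higher. Etv1, a transcription factor of maturing granule cells, had a log2 difference of -4.24 ± 0.47 (SE, adjusted p = 2.3e-05) and Gabra6, a GABA receptor subunit, of -7.05 ± 0.65 (SE, adjusted p = 2.32e-05). Ccnd2, Igfbpl1 and Dcx passed the filter on low counts only through the tumor groups, and Gabra6 only through the normal libraries. Their p-values, and the counts of calls in these lists here and above, are therefore a description and not support for a pattern. In tumor-derived astrocytes against GNPs, 5 of the 11 mature genes and 2 of the 10 young genes were higher. Of the 11 progenitor genes 0 were called in either direction, as were 0 of the 9 lineage factors. Of all tested genes 7.84% were higher and 4.36% lower there, so a count of 0 in lists this short is near that share.

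**Figure D4:**
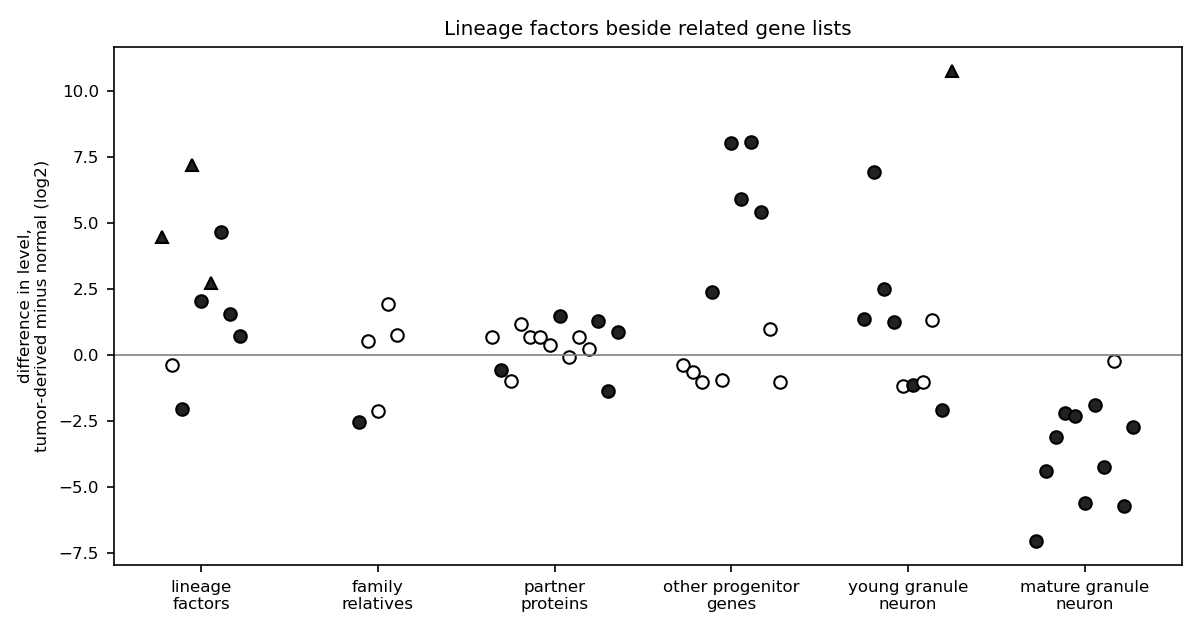
Log2 difference between tumor-derived and normal astrocytes for the 9 tested lineage factors and the tested genes of 5 related lists. Each mark is 1 gene, filled where its adjusted p was under 0.05, and triangles are lower bounds for genes at 0 in the normal libraries; 7 of 9 factors are filled and above 0, and 10 of 11 mature granule neuron genes are filled and below 0.

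The plot of lists places Neurod2 on the side of the mature granule neuron genes and 7 factors on the side of the called progenitor genes. Markers of other cells also differed between the groups. The 6 Purkinje cell markers summed to 2760 to 10400 CPM in normal astrocytes, 104 to 426 CPM in tumor-derived astrocytes and 7.78 to 12.8 CPM in GNPs, where Car8, Pcp2 and Ppp1r17 were at 0. The 6 inhibitory interneuron markers summed to 885 to 4320, 946 to 1740 and 94.7 to 134 CPM in the same order, with Slc32a1 at 0 in GNPs. Pvalb took the largest part of that sum, at 2750 CPM in normal and 1180 CPM in tumor-derived astrocytes. Gad1 stood at 133 and 6.1 CPM there, Gad2 at 78.3 and 2.83 CPM and Slc32a1 at 84.4 and 2.19 CPM. Of the 5 tested, 4 were lower in tumor-derived than in normal astrocytes and 0 higher, where 19.3% and 20.7% of all tested genes were. The 3 unipolar brush cell markers, of another granular layer neuron from the rhombic lip, summed to 100 to 298, 27.9 to 66.7 and 5.62 to 18.4 CPM, with Lmx1a at 0 in GNPs. The 6 oligodendrocyte markers summed to 498 to 1050, 180 to 292 and 26.3 to 36.9 CPM, with Mobp and Mog at 0 in GNPs. The 6 microglia markers summed to 46.5 to 216, 188 to 275 and 1.81 to 2.80 CPM, with Aif1, Cx3cr1 and P2ry12 at 0 in GNPs. Aif1, at 17.5 CPM in normal and 154 CPM in tumor-derived astrocytes, was the 1 of 5 tested that was called higher there. Among those not called, Cx3cr1 stood at 18.4 and 5.53 CPM and Tmem119 at 28.7 and 18.1 CPM. C1qa stood at 9.81 and 37.2 CPM and Csf1r at 25.2 and 26.4 CPM, also not called. The median log2 difference of the microglia list was 0.07. The 4 endothelial markers summed to 65.3 to 184, 135 to 176 and 0.104 to 4.11 CPM, with Cdh5 and Cldn5 at 0. The part of other cells in the levels of the lineage factors was not tested. Atoh1, Nhlh1 and Insm1 were at 0 in all normal libraries, a group in which markers of mature granule neurons and Purkinje cells were detected. Those markers say nothing of progenitors or young neurons. Of the 10 young granule neuron genes, 9 were detected in normal astrocytes, with Igfbpl1 at 0. The 10 genes summed to 1340 to 2140 CPM in normal astrocytes, 2020 to 2850 CPM in tumor-derived astrocytes and 1990 to 2230 CPM in GNPs. Stmn2 took the largest part of that sum in normal astrocytes, at 1360 CPM, while Dcx stood at 0.78 CPM there. The normal libraries also had the fewest detected genes, at most 16306 each. Each GNP library had at least 16633, and each tumor-derived library at least 19174. Whether this bears on the counts of 0 was not tested.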

How the data were processed

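The values were raw read counts per gene, deposited by the authors in 1 table with a column for each of the 12 libraries. Reads were examined with FastQC and aligned with STAR to mm10, per the submitters' processing notes; the sources used here do not give the counting program or its use of strand, so reads of overlapping and antisense genes, and of paralogs, cannot be told apart. Reads carry no molecular identifiers, and 3′ end amplification makes counts unrelated to gene length. Of 47284 lines, 767 repeats of a gene were dropped, and 27 symbols turned into dates were restored. Gene coordinates were read from the table (mm10), and overlapping genes and exons are from GENCODE M21.

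Genes were tested with edgeR 4.0.16 (R 4.3.3), by the robust quasi-likelihood F-test with TMM scaling, on the 14393 genes passing filterByExpr (minimum count 10, minimum total 15), with 3 group means over 12 libraries, or with GNP libraries 1, 2 and 4 (the trio) summed (residual degrees of freedom 9 and 7), and Benjamini-Hochberg adjustment over all genes tested. Every adjusted p given without another name is from the fit of 12 libraries. A standard error is the log2 difference divided by the root of its F. Where normal libraries were at 0, fold differences are lower bounds against 3 counts per library, which cover counting error only. Replicates were numbered in accession order. No label links a library to an animal; if some share one, p-values are too small, and all p-values reflect the spread among these libraries alone, which may be technical in part.

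The factors and lists were chosen with earlier results of these data known. Named from each list were the 2 called genes with the smallest p in each direction between astrocyte groups, and as most similar genes the 5 for Atoh1 and 3 for each other tested factor with the highest correlation of log2(CPM + 1). One gene that this rule names is not reported here. Alternatives were RLE and upper quartile scaling, no filter, a filter at CPM 10, DESeq2 1.42.0, no robust dispersion, 2 groups alone, the trio summed or separate, and each library left out. The edgeR test of tumor-derived against normal astrocytes was also run on simulated counts with known changes. Those counts had a smaller spread than these data and no closely alike libraries, so that run says nothing of error rates here.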

Additional observations from a re-analysis of the deposited data

Results flagged for a closer look

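In 3 of the 17 groups of 4 libraries examined, 1 library of tumor-derived astrocytes stood apart from the other 3 by a gap that filled most of the group's range, as chance gives in about 1 in 20 groups. Atoh1 was at 13.2 CPM in tumor-derived library 4 (gap 0.868 of the range), Neurod1 at 109 CPM in library 1 (0.940) and Meis1 at 115 CPM in library 4 (0.952). GNP libraries were not examined, since they count as 2 samples.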

How the results depend on the processing

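Of 558 values of the 9 tested factors under other settings, 531 kept their direction and side of the threshold, 22 passed it newly, 4 lost it and 1 changed sign, the uncalled Neurod1 difference between astrocyte groups (0.07 without normal library 2, and -0.66 without tumor-derived library 1). The calls lost were Nhlh2 between astrocyte groups (2.06 with the trio summed, 2.11 with 2 groups alone), and Nhlh2 and Meis1 between GNPs and normal astrocytes (3.35 and 1.20 with 2 groups alone). Between tumor-derived astrocytes and GNPs, factors called higher numbered 1 in place of 0 with 12 separate libraries or 2 groups alone. Factors called lower numbered 2 in place of 0 with 12 separate libraries, DESeq2 or 2 groups alone, 1 with no filter or the CPM 10 filter, and 0 to 2 with 1 library left out (1 without normal library 1 or 4, 2 without normal library 2 or 3). Atoh1 passed there in 9 of 21 settings (adjusted p 0.00322 to 0.139), Insm1 in 5 (0.00455 to 0.183) and Pax6 in 2 (0.0222 to 0.419). Between GNPs and normal astrocytes, factors called lower numbered 2 with 12 separate libraries and 1 with DESeq2, in place of 0. Why these differ was not tested, beyond the higher sample number of the separate libraries. Over all genes, tumor-derived against GNP calls were 1129 higher and 628 lower, and became 2900 and 1852 with 12 separate libraries, 2263 and 971 with DESeq2, 2306 and 1829 with 2 groups alone, and 438 to 1468 and 138 to 863 with 1 library left out (619, 677 and 643 higher and 173, 180 and 235 lower without tumor-derived library 2, 3 or 4, and fewest without GNP library 3). GNP against normal calls went from 2006 higher to 1030 with 2 groups alone and from 1929 lower to 3423 with 12 separate libraries. Upper quartile scaling moved the median difference of all genes by 0.22 and 0.24 against normal astrocytes, with the called directions of the factors kept. Pax6 was then called higher in GNPs too (1.03, adjusted p = 0.0453). No paired analysis was possible because the labels give no replicate numbers. Low counts, as for Meis2 with 0 to 15 in a library, limit what can be seen.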
